A study of Rattus norvegicus with 17 samples.

Results

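The genes described here are 4 members of the angiotensin system, the receptor genes Agtr2 and Agtr1a, the precursor gene Agt and the converting enzyme gene Ace, in fetal rat gubernaculum cultured with insulin-like 3 (Insl3). They were measured by every probe set of the array that the platform's annotation assigns to 1 of these genes alone, which gave 7 probe sets of the 20832 that carry a single gene, and 4 of 14218 genes. Agtr2, Agtr1a and Ace have 2 probe sets each, called here the stronger and the weaker by their mean signal, and Agt has 1. Agtr2 was singled out because its signal was already known to be higher on the Insl3 arrays, and the other members for belonging to the same system. The values of the 4 genes are therefore a description, with no p-value of their own. How many of their probe sets passed the fit over all probe sets is given once, beside the share of all that did, and tests are reported for other genes of the system. The list of those genes was also drawn up with earlier results of these data known, which limits what their p-values can show.

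Angiotensinogen, the product of Agt, is cut to angiotensin I, and angiotensin-converting enzyme, the product of Ace, trims this to the active peptide angiotensin II. Angiotensin II acts through the type 1 receptor, which rodents encode in the duplicated genes Agtr1a and Agtr1b and which drives vasoconstriction and growth responses, and through the type 2 receptor encoded by Agtr2. The type 2 receptor is known for high expression in fetal mesenchyme and a decline after birth, and in many settings it opposes signalling of the type 1 receptor.

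Gubernacula, the ligaments between the fetal testis and the abdominal wall, came from male Long Evans rats at gestational day 17. For each biological replicate 2 gubernaculum bulbs were kept for 24 h in hormone-free medium and then for 24 h without hormone (control, 6 arrays), with 10 nM Insl3 (5 arrays) or with 100 nM Insl3 (6 arrays). All cultures shared a medium with charcoal-stripped fetal bovine serum, insulin, transferrin and selenium, so the controls also received insulin and serum. The 10 nM replicates 4 and 5 were set aside by the submitters as outliers with a low yield of labelled cRNA, so comparisons used 6 control, 3 10 nM and 6 100 nM arrays.

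Signals are GCRMA values on a log2 scale, with 1 array per replicate, so precision is set by how few arrays there are. Values have a floor of 2.11, reached by 29.6% to 32.2% of probe sets per array, and a value of up to 2.28 is called here not above the filter value. Of 18938 probe sets past that filter (above it on at least 3 arrays), 6 of the 7 member probe sets were included, and only that of Agt was not. Markers of mesenchyme were high, with Col1a1, Col3a1, Pdgfra and Vim at control means of 14.90, 15.81, 13.30 and 14.87, while Esr1 was at the floor. Skeletal muscle markers were also high (list mean 12.59 to 12.88 on control arrays), and 4 of the 5 kidney and adrenal markers were not above the filter value on any of the 15 arrays. The gene of the Insl3 receptor was not analysed here.

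Agtr2, on chromosome X (GRCr8, chrX:116914320-116918504), gave higher signals on every Insl3 array than on any control array. At the stronger probe set the 6 control arrays read 12.65, 12.80, 12.46, 12.64, 12.66 and 12.56. The 3 arrays at 10 nM read 14.06, 13.84 and 13.82, and the 6 arrays at 100 nM read 14.00, 14.20, 13.77, 14.03, 14.13 and 14.15. Insl3 and control arrays did not overlap, while the arrays of both doses did. Of all tested probe sets, 3.48% had every 100 nM array above every control array and 9.15% had every 10 nM array above them.

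The weaker Agtr2 probe set gave the same order. Its control arrays read 8.45, 8.63, 7.59, 8.40, 8.70 and 8.88, its 10 nM arrays 10.52, 9.73 and 10.01, and its 100 nM arrays 10.38, 10.66, 9.27, 10.76, 10.82 and 10.65. Replicate 3 was the lowest array of the control group and of the 100 nM group at both probe sets.

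At 100 nM the Agtr2 signal averaged 14.05 ± 0.16 at the stronger probe set, against 12.63 ± 0.11 in controls (SD, n = 6 each), a difference of 1.42 ± 0.08 log2 units (SE of the limma fit) or 2.67-fold. At the weaker probe set it averaged 10.43 ± 0.58 at 100 nM and 8.44 ± 0.45 in controls, a difference of 1.98 ± 0.27 or 3.95-fold. At 10 nM the averages were 13.90 ± 0.13 and 10.09 ± 0.40 (n = 3), with differences from control of 1.28 ± 0.10 and 1.65 ± 0.33 log2 units, or 2.42-fold and 3.13-fold. The probe sets thus gave unequal sizes for the same gene, the weaker one the larger.

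The ascending order of the Agtr2 levels was control, 10 nM, 100 nM at both probe sets. The neighbours 10 and 100 nM differed by 0.14 ± 0.10 log2 units at the stronger and by 0.34 ± 0.33 at the weaker probe set (100 nM minus 10 nM, SE), with overlapping arrays. By the size of the rise, Agtr2 stood 77th of 10665 genes at 100 nM and 88th at 10 nM, each gene represented by its probe set with the highest mean.

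**Figure D1:**
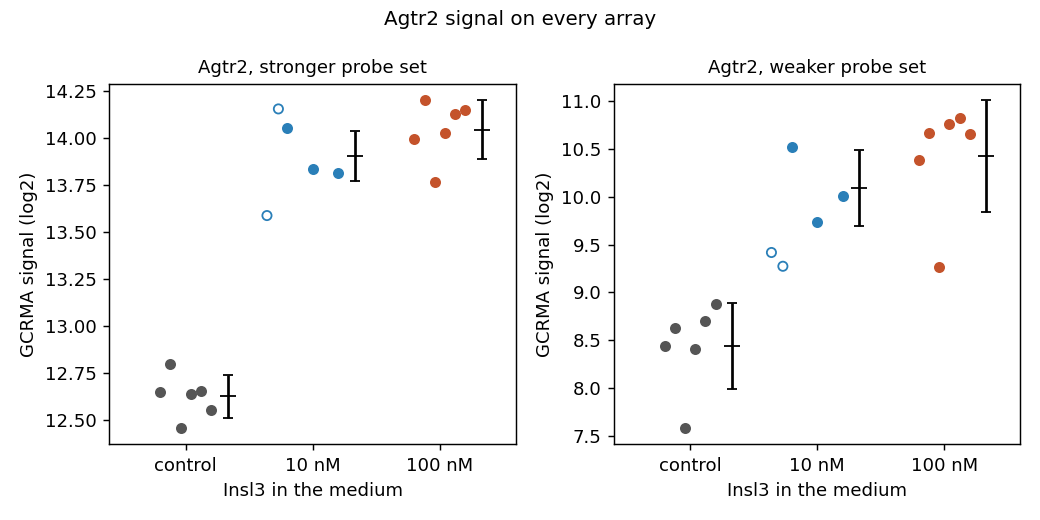
GCRMA signal (log2) of the 2 Agtr2 probe sets on every array, by Insl3 concentration, with filled points for the 15 arrays compared, open points for the 2 set-aside 10 nM arrays, and bars for the mean ± SD of the filled points. All control arrays lie at or below 12.80 (stronger probe set, left) and 8.88 (weaker probe set, right), below every Insl3 array.

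Of the 6 member probe sets in the fit, 2 passed an adjusted p of 0.05 at 100 nM and 2 at 10 nM, both of them those of Agtr2, where 10.9% and 10.6% of all tested probe sets passed (limma, Benjamini-Hochberg). Between 100 and 10 nM none of the 6 passed (limma; also none at an unadjusted p under 0.05), where 1.43% of all probe sets did. Nothing is read from these counts, since Agtr2 was chosen by its change.

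The 2 set-aside 10 nM arrays were not among the values by which the members were chosen. On replicates 4 and 5 Agtr2 read 13.59 and 14.16 at the stronger probe set, against a highest control of 12.80. At the weaker one it read 9.42 and 9.27, against a highest control of 8.88. Both arrays therefore lay above all 6 controls at both probe sets, a pattern shown by 13.9% of all tested probe sets. With 2 arrays no test was made.

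Markers of other cells moved over the same comparisons. Of all genes, 8.15% rose and 3.98% fell at 100 nM, and 5.54% rose and 3.13% fell at 10 nM. Of 7 erythroid markers 6 fell at 100 nM, with a list mean of 4.16 to 6.79 on 100 nM arrays and 6.43 to 8.97 on control arrays, whereas at 10 nM none passed the test (6.28 to 7.85). The difference of Agtr2 at its stronger probe set was 1.26 at 100 nM and 1.24 at 10 nM with that mean as a covariate. Of the 7 tested endothelial markers 3 rose at both doses, namely Cldn5, Kdr and Ramp2. Pecam1, Tie1, Esam and Egfl7 passed at neither dose. They averaged 2.96, 2.30, 6.25 and 5.45 at 100 nM, against 2.95, 2.22, 6.62 and 5.28 in controls. The endothelial list mean was 5.59 to 5.88 in controls, 5.94 to 6.11 at 10 nM and 6.06 to 6.38 at 100 nM. With the endothelial mean as a covariate the differences at 100 nM were 1.38 at the stronger and 1.36 at the weaker probe set. That mean did not overlap between control and Insl3 arrays compared. Fits with it, here and below, therefore cannot separate the covariate from the treatment, and no conclusion is drawn from them. Flt1 and Tek, which also mark endothelium, were not above the filter value on any of the 15 arrays. Of 7 leukocyte markers 6 fell at 100 nM and none passed at 10 nM, and the list mean was 9.09 to 10.27 in controls, 9.24 to 9.93 at 10 nM and 7.24 to 8.81 at 100 nM. The mean of the mesenchyme list, whose cells are known to express Agtr2, was 11.31 to 11.45 in controls, 11.52 to 11.65 at 10 nM and 11.56 to 11.98 at 100 nM, so every Insl3 array compared lay above every control. Of its 7 tested genes only Twist2 passed at 100 nM, where it averaged 7.78, against 4.95 in controls, the largest change in the list. Twist1 and Pdgfra averaged 10.41 and 13.52 at 100 nM, against 9.81 and 13.30 in controls. Col1a1, Col1a2, Col3a1 and Vim averaged 14.96, 15.36, 15.82 and 14.84, against 14.90, 15.345, 15.81 and 14.87. The list mean therefore moved mostly with Twist2. On the set-aside 10 nM arrays, where Agtr2 was above all controls, the mesenchyme mean was 10.99 to 11.01, below all controls. The part of the mesenchyme and leukocyte lists in the Agtr2 result was not tested. In bulk tissue, a different number of cells of a type and a different amount of RNA per cell cannot be told apart.

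Agtr1a, on chromosome 17 (chr17:34383397-34435523), encodes the main rodent type 1 receptor and did not show the separation seen for Agtr2. Its stronger probe set read 7.84, 7.51, 7.23, 7.03, 7.52 and 7.68 on control arrays. It read 7.96, 7.98 and 8.03 at 10 nM, and 8.45, 8.23, 6.61, 7.14, 8.07 and 7.62 at 100 nM. The 10 nM arrays lay just above all controls, and the 100 nM arrays spread over both sides of the controls.

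The mean Agtr1a signal at that probe set was 7.69 ± 0.70 at 100 nM and 7.47 ± 0.29 in controls (SD, n = 6 each), a difference of 0.22 ± 0.27 log2 units (SE). At 10 nM it was 7.99 ± 0.04 (n = 3), 0.52 ± 0.33 above control. The difference at 100 nM was -0.70 with the erythroid and -0.96 with the endothelial mean as a covariate. At 10 nM it was -0.33 with the endothelial covariate, which cannot be separated from the treatment, as given above. The weaker probe set lay close to the floor at 2.54 to 3.29 on all 15 arrays and differed by 0.10 ± 0.10 at 100 nM and 0.06 ± 0.12 at 10 nM.

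Ace, on chromosome 10 (chr10:91410129-91430246), encodes the enzyme that makes angiotensin II, and both of its probe sets were weak. At the stronger one the control arrays ran from 2.11 to 3.47, the 10 nM arrays from 2.62 to 3.86 and the 100 nM arrays from 2.38 to 3.35. All groups overlapped, with differences of 0.02 ± 0.24 at 100 nM and 0.46 ± 0.29 at 10 nM (SE). Without 10 nM replicate 1 the difference at 10 nM was 0.10. At the weaker probe set only control replicates 1 and 6 (3.73 and 2.77) and 100 nM replicate 2 (2.39) were above the filter value, and differences are not interpretable there.

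Agt, on chromosome 19 (chr19:69426540-69447017), which encodes the precursor of all angiotensin peptides, was at the floor of 2.11 on all 17 arrays. No level or change of it could be measured by its single probe set, so no statement can be made on its transcript below the array's background.

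**Figure D2:**
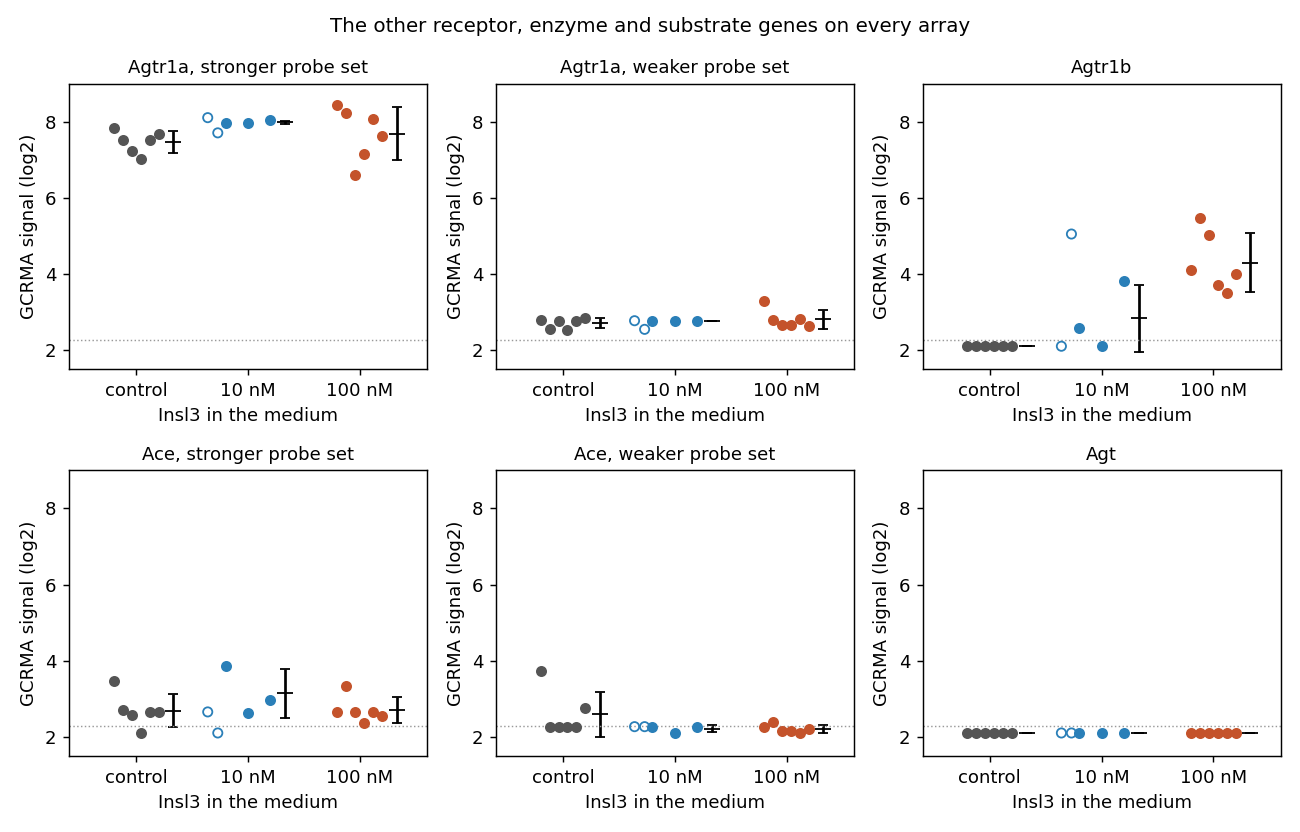
GCRMA signal (log2) of Agtr1a, Ace, Agt and the second type 1 receptor gene Agtr1b on every array, drawn as for Agtr2, with the filter value of 2.28 as a dotted line. Agtr1a at its stronger probe set is high in all groups, Agt stays at the floor of 2.11, and Agtr1b lies at the floor on all 6 control arrays and between 3.50 and 5.46 at 100 nM.

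Other genes of the system were taken from a list of pathway symbols, chosen with earlier results of these data known. Of these, 31 genes had a probe set and 26 passed the filter. At 100 nM 4 rose and 1 fell of the 26, and the other 21 did not pass (limma, adjusted p under 0.05), where 8.15% of 10665 genes rose and 3.98% fell, 12.1% in all. The 4 include Agtr1b, which was at the floor on every control array and passed the filter through Insl3 arrays alone, so its call is no independent test. The median difference of the 26 was 0.06 log2 units, beside 0.02 for all genes. At 10 nM 1 rose, none fell and 25 did not pass (6 of 26 had an unadjusted p under 0.05), where 5.54% of genes rose and 3.13% fell, 8.67% in all, with a median of 0.07 beside 0.06 for all genes. Between 100 and 10 nM none of the 26 passed (limma; 4 had an unadjusted p under 0.05), where 0.778% of genes did.

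Among receptors, Agtr1b was detected on all 100 nM arrays and on no control array. This second rodent type 1 receptor gene lies on chromosome 2 (chr2:104774005-104849262) and has 1 probe set. It was at the floor of 2.11 on all 6 control arrays, read 2.59, 2.13 and 3.83 at 10 nM, and read 4.10, 5.46, 5.03, 3.72, 3.50 and 4.00 at 100 nM. Every 100 nM array lay above every control, and the 10 nM values ran from near the floor into the 100 nM range.

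Agtr1b averaged 4.30 ± 0.77 at 100 nM, against 2.11 in controls (SD, n = 6 each), and was at least 4.05-fold higher when controls are set at the filter value. The fit gave an adjusted p of 0.000969 (limma), but the controls had no spread and the gene entered the fit through the arrays where it was high, so the values are to be read as a description. At 10 nM it was 2.85 ± 0.88 (n = 3), with an adjusted p of 0.299. The difference between 100 and 10 nM had an adjusted p of 0.0976, and 0.0438 without 100 nM replicate 5. The fitted difference at 100 nM, 2.19 log2 units, was 2.41 within replicates 1, 2 and 6 alone (adjusted p = 0.0507, limma). It was 1.98 within replicates 3, 4 and 5 alone (adjusted p = 0.0508) and 2.50 with the endothelial mean as a covariate (adjusted p = 0.122). None of these passed the threshold. The split of replicates, used again below, was a setting of these checks and is not a batch named by the sample labels. On the set-aside 10 nM replicates 4 and 5 it read 2.11 and 5.05. Agtr1a and Agtr1b have closely related coding sequences, and whether each probe set separates them was not tested. The stronger Agtr1a probe set was lowest at 6.61 on 100 nM replicate 3, where Agtr1b read 5.03. On 100 nM replicate 2, where Agtr1b was highest at 5.46, that Agtr1a probe set read 8.23. Nothing is read from these single arrays.

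The other receptors and partners showed no call. Mas1, the receptor of angiotensin-(1-7), and Bdkrb1, a bradykinin receptor, were at the floor on all 17 arrays, and none of the 3 probe sets of the other bradykinin receptor gene Bdkrb2 passed the filter. Agtrap, which encodes a protein that binds the type 1 receptor, differed by -0.36 ± 0.45 log2 units at 100 nM (adjusted p = 0.662, limma) and 0.53 ± 0.55 at 10 nM (adjusted p = 0.609). Mtus1, which encodes a partner of the type 2 receptor, differed by 0.36 ± 0.26 (adjusted p = 0.415) and 0.63 ± 0.32 (adjusted p = 0.248).

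The promoter stretches of the 3 receptor genes are shown because these genes differ in their values, with Agtr2 high and higher with Insl3, Agtr1b leaving the floor at 100 nM, and Agtr1a high in all groups. The 250 bases before each start site of the promoter table are from RefSeq (GRCr8), at chrX:116914070-116914319 (plus strand), chr2:104849263-104849512 (minus strand) and chr17:34435433-34435682 (minus strand), written 5′ to 3′ on the gene's strand. Capitals mark matches on either strand to TGACG, the 5-base part of the cyclic AMP response element TGACGTCA, or to TATAAA.
Agtr2: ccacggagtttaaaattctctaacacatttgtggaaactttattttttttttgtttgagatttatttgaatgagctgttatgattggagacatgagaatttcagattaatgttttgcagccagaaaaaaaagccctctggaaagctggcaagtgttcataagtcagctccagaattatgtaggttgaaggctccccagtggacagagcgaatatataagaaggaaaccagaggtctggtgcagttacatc
Agtr1b: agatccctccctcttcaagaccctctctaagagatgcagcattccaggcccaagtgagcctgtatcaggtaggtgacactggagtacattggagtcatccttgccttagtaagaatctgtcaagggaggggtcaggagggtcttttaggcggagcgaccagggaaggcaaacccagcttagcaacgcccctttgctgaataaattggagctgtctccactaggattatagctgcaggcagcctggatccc
Agtr1a: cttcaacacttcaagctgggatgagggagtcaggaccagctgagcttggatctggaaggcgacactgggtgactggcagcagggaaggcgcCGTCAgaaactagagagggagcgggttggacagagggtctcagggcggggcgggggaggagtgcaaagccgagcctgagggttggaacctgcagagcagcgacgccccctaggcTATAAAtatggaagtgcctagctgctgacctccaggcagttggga
For Agtr1a that start site lies inside the annotated gene range given above, so its stretch runs over the 5′ end of the range. The Agtr1a stretch held 1 match to TGACG, outside the range, and 1 to TATAAA, inside it, and those of Agtr2 and Agtr1b held neither. Of 33469 promoter stretches of the same length, 18.2% held TGACG, 12.9% held TATAAA and 1.59% held the full TGACGTCA, which none of the 3 genes had. TGACG lies within TGACGTCA, so these matches are not separate.

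Among enzymes that cut angiotensin peptides, 3 of 9 tested genes rose at 100 nM and none fell. Of all genes, 8.15% rose and 3.98% fell. Mme encodes neprilysin, a membrane endopeptidase that forms angiotensin-(1-7) from angiotensin I and also cuts natriuretic peptides. Its signal was 8.75, 8.89, 9.38, 9.27, 9.34 and 8.93 on control arrays, 10.34, 10.11 and 10.07 at 10 nM, and 10.28, 10.70, 10.12, 10.44, 10.66 and 10.64 at 100 nM. On the arrays compared, both doses lay above all controls and overlapped each other. Of the set-aside 10 nM arrays, replicate 5 (10.01) was above all controls and replicate 4 (9.19) was within their range, unlike for Agtr2.

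Mme rose by 1.38 ± 0.13 log2 units at 100 nM, or 2.61-fold (10.47 ± 0.23 at 100 nM and 9.09 ± 0.27 in controls, SD, n = 6 each; adjusted p = 2.1e-05, limma), and by 1.08 ± 0.16 at 10 nM, or 2.11-fold (adjusted p = 0.000949). The doses were not separated (0.30 ± 0.16, adjusted p = 0.491). It was 1.69 within replicates 1, 2 and 6 and 1.08 within replicates 3, 4 and 5, and passed the threshold at 100 nM in each alternative tried.

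Anpep, which encodes aminopeptidase N, the enzyme that turns angiotensin III into angiotensin IV, averaged 10.75 ± 0.21 at 100 nM and 10.05 ± 0.25 in controls (SD, n = 6 each). The rise of 0.70 ± 0.12 log2 units, or 1.63-fold, had an adjusted p of 0.002 (limma), and all 100 nM arrays (10.49 to 11.05) were above all controls (9.63 to 10.38). At 10 nM it differed by 0.42 ± 0.14 (adjusted p = 0.0824). The set-aside arrays read 9.01 and 9.19, below every control, and with them in the fit the adjusted p at 100 nM was 0.113 for the same difference of 0.70. The difference was 0.62 within replicates 1, 2 and 6 (adjusted p = 0.116) and 1.12 with the endothelial covariate (adjusted p = 0.0504).

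Cpa3, which encodes the carboxypeptidase of mast cells that can trim angiotensin I, averaged 8.10 ± 0.84 at 100 nM and 6.74 ± 0.58 in controls (SD, n = 6 each). It rose by 1.36 ± 0.36 log2 units, or 2.57-fold (adjusted p = 0.0283, limma), with overlapping arrays (6.89 to 9.25 at 100 nM, 6.02 to 7.49 in controls). Leaving out 1 array ended the call in 6 of 15 cases, namely control replicates 1, 2 and 4 and 100 nM replicates 2, 4 and 5 (adjusted p of 0.0523 to 0.0607), where the difference was 1.13 to 1.38 log2 units. It also ended in 7 other alternatives (adjusted p up to 0.18), with differences of 1.33 to 2.19, the highest with the endothelial covariate. Cma1, the gene of mast cell chymase, which can also form angiotensin II, read 2.11 to 4.99 at 100 nM and 2.11 to 3.04 in controls, and differed by 0.77 ± 0.43 (adjusted p = 0.281). Cpa3 and Agtr1b lie 100751 bases apart on chromosome 2, with 1 annotated gene between them.

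The remaining 6 enzymes of this group (Enpep, Prep, Rnpep, Prcp, Thop1 and Nln) differed by -0.16 to 0.07 log2 units at 100 nM, with no call. Enpep encodes aminopeptidase A, which turns angiotensin II into angiotensin III, and its difference was 0.07 ± 0.15 (adjusted p = 0.805, limma). Its second probe set disagreed, at -0.51 ± 0.17 (adjusted p = 0.0735). Of 3 tested genes for making angiotensin none passed at either dose (limma). Besides Cma1 these were Atp6ap2, which encodes an accessory protein of the vacuolar proton pump (0.09 ± 0.07 at 100 nM, adjusted p = 0.441), and the aspartic protease gene Ctsd (-0.25 ± 0.09, adjusted p = 0.0784).

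Of 11 genes that carry the receptors' signals inside the cell, none rose and 1 fell at 100 nM. The shares of all genes were 8.15% and 3.98%. Ptpn6 encodes the tyrosine phosphatase SHP-1, linked to type 2 receptor signalling and abundant in blood cells. It averaged 7.24 ± 0.17 at 100 nM and 7.95 ± 0.26 in controls (SD, n = 6 each), a fall of 0.71 ± 0.16 log2 units (adjusted p = 0.0108, limma), with arrays that overlap at 7.55. Leukocyte markers fell over the same arrays, as given above, and their part in the result was not tested. The call was lost in 4 alternatives in which the difference stayed close to its size. It was -0.60 with the erythroid mean as a covariate (adjusted p = 0.223), -0.69 with the endothelial mean (adjusted p = 0.329), -0.62 within replicates 1, 2 and 6 (adjusted p = 0.315) and -0.71 with all 17 arrays (adjusted p = 0.0533). Gnaq and Plcb1, genes of the G protein subunit and phospholipase C used by the type 1 receptor, differed by -0.35 ± 0.13 (adjusted p = 0.0906) and -0.64 ± 0.27 (adjusted p = 0.158) at 100 nM. Gnaq was near the floor, at 2.67 to 2.71 at 100 nM and 2.71 to 3.61 in controls. Gna11 and Plcb3, further genes of these families, went the other way, by 0.35 ± 0.57 (adjusted p = 0.743, limma) and 0.27 ± 0.10 (adjusted p = 0.0948). With the replicate block Plcb3 passed at 100 nM (adjusted p = 0.0253, limma). At 10 nM no transducer passed (limma). Gnai2, the gene of another G protein subunit, differed by -0.39 ± 0.14 (adjusted p = 0.0869). It passed without control replicate 4 and in 4 other alternatives (adjusted p of 0.0211 to 0.254 over all alternatives). Plcb1 differed by -0.95 ± 0.33 (adjusted p = 0.0923). Its value was 0.00227 when only 10 nM and control arrays were fitted, and up to 0.863 in other alternatives.

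**Figure D3:**
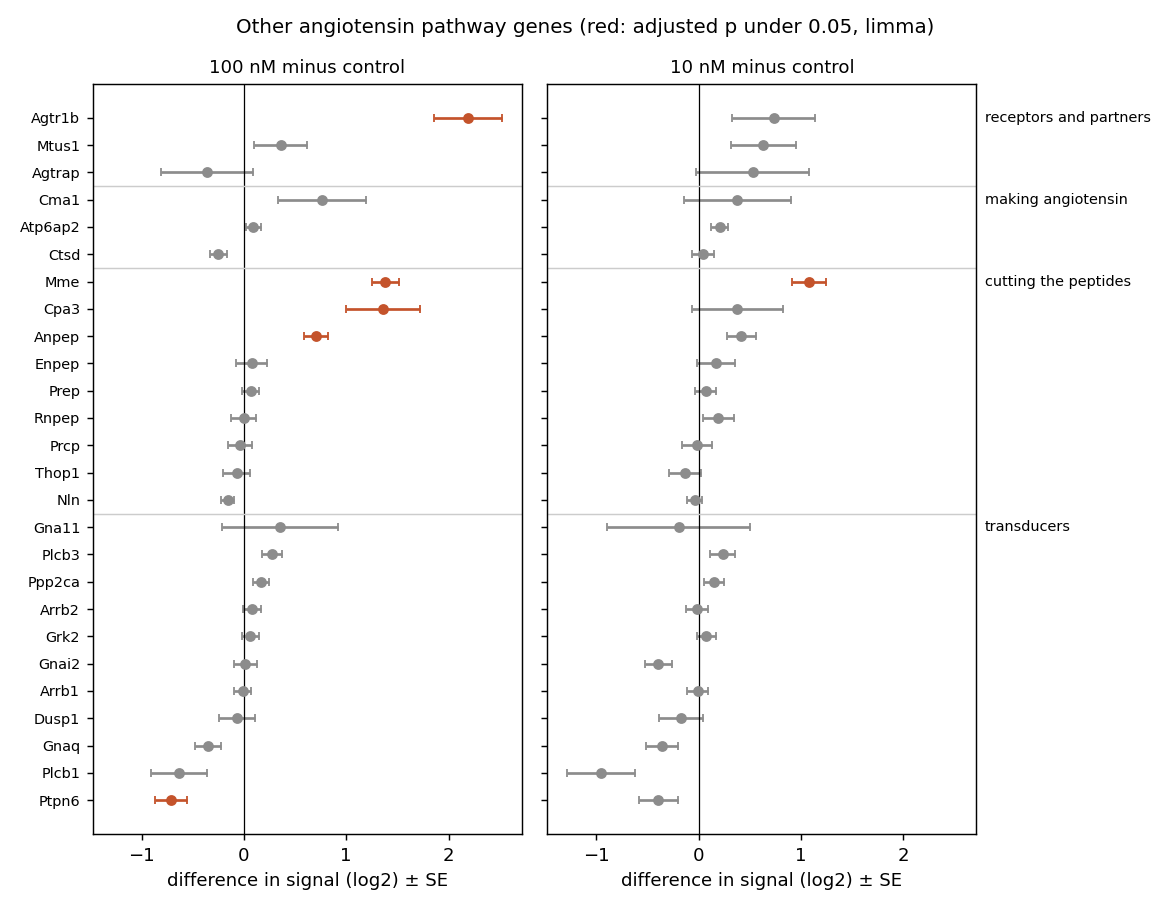
Difference from control (log2, dot) with its SE (bar) for the 26 tested pathway genes other than the members, at 100 nM on the left and 10 nM on the right, grouped by role and coloured red where the adjusted p was under 0.05. Agtr1b, Mme, Cpa3, Anpep and Ptpn6 are coloured at 100 nM, and Mme alone at 10 nM.

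The genes whose profile was most like that of Agtr2 were sought as those with the smallest root mean square distance over the 15 arrays, each gene taken relative to its own control mean, among 10664 other genes. The 5 nearest were Slc44a1 (0.19 log2 units), Mme (0.22), Ngfr (0.22), Aebp1 (0.23) and Ap1s3 (0.24). Slc44a1 encodes a choline transporter, Ngfr the low-affinity neurotrophin receptor, Aebp1 a secreted matrix-binding protein and Ap1s3 a subunit of a clathrin adaptor. The other Agtr2 probe set stood farther away (0.53), and its change was larger.

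At 100 nM these 5 genes differed from control by 1.29 (Slc44a1), 1.38 (Mme), 1.38 (Ngfr), 1.54 (Aebp1) and 1.39 (Ap1s3) log2 units, and at 10 nM by 1.49, 1.08, 1.26, 1.03 and 1.29 in the same gene order. For all of them every Insl3 array among the 15 lay above every control array, which the search itself favours. The set-aside 10 nM arrays, which the search did not use, both lay above all controls for Slc44a1 (11.06 and 11.51, highest control 10.55) and Ap1s3 (5.29 and 5.88, highest control 4.66). They did not for Mme (given above), Ngfr (9.19 and 9.48, highest control 9.61) and Aebp1 (8.25 and 8.97, highest control 9.41). With all 17 arrays the difference at 10 nM was 0.39 for Aebp1 and 0.81 for Ngfr. By Pearson's r with Agtr2, which leaves out the size of the change, the 5 genes ranked 10, 18, 20, 21 and 28 of 10664 in the same gene order, behind Gda, Wnt2, Kitlg, Cpe and Col8a1 as the first 5.

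**Figure D4:**
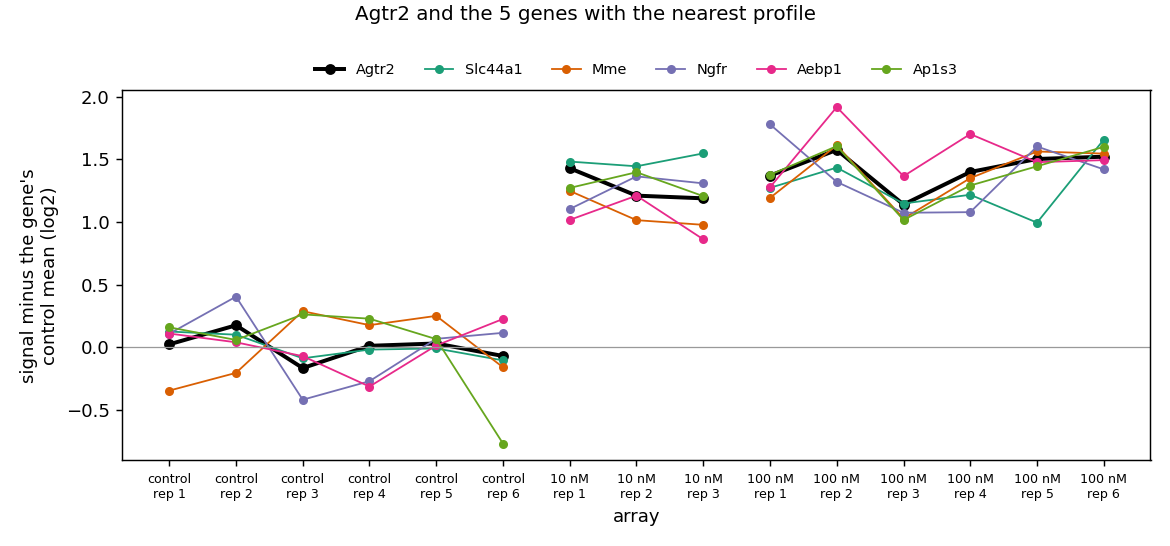
Signal of Agtr2 (black, stronger probe set) and of the 5 genes with the nearest profile, minus each gene's control mean (log2), on the 15 arrays in order of Insl3 concentration. Insl3 arrays lie 0.86 to 1.92 above the control mean, and control arrays between -0.77 and 0.40 around it.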

How the data were processed

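Expression was measured in cultured rat gubernacula on 17 arrays, of which 15 were compared. Per the labels and the submitters' processing notes, the authors made the deposited log2 values with GCRMA from cRNA labelled from 150 ng of total RNA. The base of the logarithm and the GCRMA version are not stated, and base 2 was taken from the range of 2.11 to 16.9. Background at the floor compresses changes that start there.

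Control probe sets were left out, and probe sets above the 40th percentile of all values (2.28) on at least 3 arrays were tested. The 3 groups were fitted together with limma 3.58.1 in R 4.3.3, 2-sided, with Benjamini-Hochberg adjustment over 18938 probe sets. The fit was tested on simulated data with independent normal noise. That simulation had no floor, so it says nothing of calls near the floor. The probe set with the highest mean stood for a gene. The text names the members, pathway genes past the threshold, all receptors on the list and the 5 nearest profiles; other pathway genes were chosen after their values were seen. Members and lists were chosen with earlier results of these data known. The labels call the replicates biological. No 2 arrays held identical values. The labels do not say what a replicate number shares, so the main fit used no block. Even so, 4 of 6 same-numbered pairs of 100 nM and control arrays deviated together with a correlation over 0.1 (range 0.00676 to 0.199). For 10 nM and control arrays this held for 1 of 3 pairs (-0.0433 to 0.131). For 100 nM and 10 nM arrays it held for 1 of 3 pairs (-0.0708 to 0.186). Pairs with different numbers were not compared, so these correlations have no baseline. A shared source within a number is possible but was not tested, and results with a replicate block are given below.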

Additional observations from a re-analysis of the deposited data

Results flagged for a closer look

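Of 32 groups of 6 arrays examined for member, called and receptor probe sets, 9 had 1 array far from the rest, by a limit that nominally flags about 1 in 20 groups by chance. Values repeated near the floor, as for Ace, make a group easier to flag. For the weaker Agtr2 probe set these were 100 nM replicate 3 (9.271, next value 10.38) and control replicate 3 (7.586, next value 8.405). Without them in turn the difference at that probe set was 2.21 and 1.81 log2 units. Agtr1a stood out at its weaker probe set on 100 nM replicate 1 (3.287), Ace at its stronger probe set on 100 nM replicate 2 (3.351) and at its weaker one on control replicate 1 (3.727). Ptpn6 was high on 100 nM replicate 5 (7.551) and Agtrap on control replicate 1 (8.034). A probe set of Mtus1 other than the one standing for the gene was high on 100 nM replicate 5 (5.156) and low on control replicate 2 (4.09).

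Agtr2 on the set-aside 10 nM replicates 4 and 5, which enter no comparison, was above every control array, at 13.59 and 14.16 (stronger probe set, highest control 12.8) and at 9.417 and 9.274 (weaker probe set, highest control 8.877).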

How the results depend on the processing

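The Agtr2 difference at the stronger probe set stayed between 1.39 and 1.47 log2 units at 100 nM, between 1.20 and 1.32 at 10 nM, and between 0.10 and 0.22 for 100 nM minus 10 nM in fits without 1 array. It moved by more than the replicate SD only with the erythroid covariate at 100 nM (1.26), and was 1.42 with the replicate block. No difference or call named in the text as past the threshold changed direction. With the replicate block the pathway count was 6 at 100 nM and 3 at 10 nM, and the count of all probe sets was 1781 at 100 nM and 429 for 100 nM minus 10 nM.

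At 100 nM 5 pathway genes were called, 4 to 6 without 1 array, 2 with all 17 arrays or the endothelial covariate, and 1 and 3 within replicates 1, 2 and 6 and within replicates 3, 4 and 5. At 10 nM the count of 1 became 2 after quantile normalization again, with only 2 groups fitted or with the erythroid covariate, 3 with all 17 arrays, the replicate set as a term or the endothelial covariate, and 1 to 2 without 1 array. The second gene was Gnai2 without control replicate 4, Anpep without control replicate 5, Ptpn6 without 10 nM replicate 2, and Plcb1 without 100 nM replicate 1 or 3. For 100 nM minus 10 nM it was 0 to 1 without 1 array.

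Over all probe sets, 2065 were called at 100 nM (1442 to 2616 without 1 array; 1008 with all 17 arrays, 200 within replicates 1, 2 and 6, 657 with the erythroid and 296 with the endothelial covariate). At 10 nM 2004 were called (1020 without 10 nM replicate 3, 1256 without 10 nM replicate 1, at most 2495; 559 within replicates 1, 2 and 6, 1245 with the endothelial covariate). For 100 nM minus 10 nM 271 were called. It was 22 with no filter, 3 with only 2 groups fitted, 531 with the replicate set as a term, 134 within replicates 1, 2 and 6, and 41 with the endothelial covariate. It was 149 without control replicate 3 or 4, 133 without control replicate 5, 101, 127 and 3 without 10 nM replicates 1, 2 and 3, and 139, 56, 121, 619 and 98 without 100 nM replicates 1, 2, 3, 5 and 6. The replicate sets (1, 2 and 6, and 3, 4 and 5) are not named by the sample labels, and fewer arrays enter the fits within them. Otherwise the cause was not tested. Signals near the floor limit Ace, Agt, Agtr1b, Cma1 and Gnaq.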
